A study of Mus musculus with 24 samples.

Results

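Exosome-enriched fractions (EEFs), vesicle preparations made from dissociated brain tissue, were examined here at the late time point after status epilepticus in mice, in the libraries whose vesicles were pelleted by ultracentrifugation (UC). The comparison holds 3 libraries labelled UC KA 2w and 3 labelled UC control 2w, which are 6 of the 24 small RNA libraries of the series. All mice were male C57BL/6 animals (C57BL/6OlaHsd in the methods of the study) aged 6 to 9 weeks. KA mice received 0.3 µg of kainic acid, an agonist of ionotropic glutamate receptors, in 0.2 µl into the right basolateral amygdala, and control mice received phosphate-buffered saline by the same route. Midazolam at 8 mg/kg, given after 40 min to curtail seizures, is listed for the KA and control libraries alike. Tissue was taken after perfusion 14 days (2 weeks) after the injection. Each UC library came from a pool of 5 hippocampi, so no value belongs to a single mouse. The vesicles were treated with RNase A before RNA extraction, a step the study used to remove RNA that is not enclosed. The study also found a mitochondrial marker (porin) and an endoplasmic reticulum marker (calretinin) in UC fractions. It names contaminants as a possible source of part of the recovered miRNAs, beside an incomplete reference database. Which reads came from enclosed RNA was not tested, and vesicle miRNAs here means the miRNAs of these fractions. Libraries with the same design taken 24 h after the injection (3 UC KA and 3 UC control), and libraries at 2 weeks whose vesicles were precipitated with a commercial kit from pools of 4 hippocampi, were used to test where the 2 week result differs. The 24 h UC libraries also entered the fit of the 2 week comparison, where they add to the estimate of the spread.

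The members are miRNAs. Of 1073 miRNAs with a read anywhere in the series, 728 had at least 1 read in these 6 libraries, and 445 had at least 1 read in at least 3 of them and were tested. These 445 include 302 seen in all 6 libraries and 46 seen in exactly 3. The 283 miRNAs left out held 0.0554% of the 866611 reads and never more than 10 reads in a library, and 90 of them were seen in 2 libraries and 193 in 1. Summed over the 6 libraries, the 46 miRNAs just inside the filter had 3 to 19 reads and the 90 just outside had 2 to 5. Of the tested miRNAs, 4 had reads only in KA libraries (at most 3 in a library) and 3 only in control libraries (at most 2), so no fold change is given for them.

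MiRNAs are short RNAs that guide Argonaute proteins to mRNAs with complementary sites, mainly through the seed, bases 2 to 8 of the mature strand, and lower the stability or translation of those mRNAs. Cells release part of their miRNAs in vesicles, where the membrane shields them from nucleases. In the hippocampus, status epilepticus is known to be followed by neuron loss, gliosis and inflammation, and several miRNAs of these processes are well described. MiR-146a is induced by NF-κB and lowers the Toll-like receptor adaptors TRAF6 and IRAK1. MiR-21 is induced in reactive glia and lowers PDCD4. MiR-204 is known for its high level in choroid plexus and other pigmented or secretory epithelia, and miR-1298 lies in a group of miRNAs within the serotonin 2C receptor gene, a gene strongly used in choroid plexus.

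The mature sequences of some of the miRNAs described below are given 5′ to 3′ from RefSeq (GRCm38.p6), with the seed in capitals. The 4 that passed the adjusted threshold come before miR-146b-5p, which shares the seed of miR-146a-5p, and miR-34b-5p and miR-448-3p, which stand on the same list as miR-204-5p and miR-1298-5p. MiR-448-3p passed no threshold and was named after its values were seen. Other members of that list, such as miR-34c-5p and miR-204-3p, are not shown.
miR-204-5p: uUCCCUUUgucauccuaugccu
miR-146a-5p: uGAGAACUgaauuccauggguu
miR-21a-5p: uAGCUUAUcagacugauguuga
miR-1298-5p: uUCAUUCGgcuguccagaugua
miR-146b-5p: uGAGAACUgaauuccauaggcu
miR-34b-5p: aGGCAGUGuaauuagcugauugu
miR-448-3p: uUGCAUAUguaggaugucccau

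In GRCm38 with the GENCODE M21 annotation, the miR-204 hairpin lies at chr19:22750605-22750672 on the plus strand in an intron of Trpm3, which codes for a cation channel. The miR-146a hairpin lies at chr11:43374397-43374461 on the minus strand, where no gene of that annotation other than the hairpin itself overlaps it. The miR-21a hairpin lies at chr11:86584067-86584158 on the minus strand within an exon of Vmp1, which codes for a membrane protein of autophagy. The miR-1298 hairpin lies at chrX:147064905-147065002 on the plus strand in an intron of Htr2c, the serotonin 2C receptor gene, and the miR-448 hairpin lies in an intron of the same gene at chrX:147158210-147158321.

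The 6 libraries held 85436 to 169639 miRNA reads (control 124525, 169639 and 85436, KA 168312, 150256 and 168443), so that 1 read was worth 5.94 to 10.3 CPM. This unit (counts per 1e6 reads) takes the library total adjusted by the trimmed mean of M values (TMM). A count of 0 in a library therefore allows a level of up to 17.8 to 30.9 CPM (3 reads), which covers counting error only. UC KA replicate 3 stood apart from the other 5 libraries. Its Spearman correlations with them over 205 miRNAs with at least 10 reads in 3 libraries were 0.868 to 0.906, whereas the other libraries reached up to 0.966, and it was the highest of the 6 libraries for 71 and the lowest for 51 of the 205 miRNAs. Results below are therefore also given without it. Replicates of a group differed by much more than counting error, with chi-square values of 14.5 to 50.8 per degree of freedom. The libraries held the miRNAs known from hippocampal cells, among them miR-124-3p and miR-9-5p of neurons, miR-219a-2-3p and miR-338-3p of oligodendrocytes and miR-26a-5p and miR-29a-3p of astrocytes. Among miRNAs known from red blood cells, miR-451a, miR-144-5p and miR-486a-5p had no read, whereas miR-16-5p and miR-486b-5p were detected.

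The question was which vesicle miRNAs differ 2 weeks after KA. The results are given in the order of levels, groups of miRNAs, time and isolation method, and the reads themselves (their ends, arms and edited bases). Levels were tested with edgeR's quasi-likelihood test on the counts, over the 12 UC libraries, and p-values were adjusted by the Benjamini-Hochberg method over all 445 miRNAs.

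MiR-204-5p, miR-146a-5p, miR-21a-5p and miR-1298-5p rose after KA at an adjusted p under 0.05, and 0 miRNAs fell, so that 0.899% of the tested miRNAs were called (lower 0.0%). By the unadjusted p under 0.05 that the study used, 40 miRNAs passed (8.99%), of which 26 were higher after KA (5.84%) and 14 lower (3.15%). The number and split of the miRNAs past the unadjusted p depended on the scaling, which called partly other miRNAs. With the relative log expression (RLE) size factors of DESeq2 it was 12 higher and 18 lower (26 of them among the 40), with library size alone 12 higher and 20 lower (26 among the 40), and when libraries were scaled to the pair of reference miRNAs the study used for PCR (miR-92b-3p and miR-25-3p) 0 higher and 33 lower (14 among the 40). Both of these reference miRNAs had positive log2 differences under TMM, and miR-25-3p passed the unadjusted p. Scaling to them therefore lowers the log2 differences of the other miRNAs. That last scaling moved the median log2 difference of all tested miRNAs from 0.095 to −0.52, and with it no miRNA passed the adjusted threshold. Relative to the median, the 4 miRNAs were still higher by 1.18 (miR-204-5p), 1.13 (miR-1298-5p), 1.08 (miR-146a-5p) and 0.94 (miR-21a-5p) on the log2 scale. As the vesicles are bulk preparations from whole hippocampi, a changed number of vesicles of one cell type and a changed amount of a miRNA per vesicle cannot be told apart. This holds for higher and lower levels.

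MiR-146a-5p had 281, 339 and 229 reads in the control libraries and 718, 798 and 890 in the KA libraries. As levels these were 2148, 2196 and 2356 CPM against 4262, 5428 and 6222 CPM, and every KA library lay above every control library. The mean was 2233 ± 109 CPM (SD, n = 3) in control and 5304 ± 986 CPM (SD, n = 3) in KA, and the fitted log2 difference was 1.25 ± 0.27 (SE, adjusted p = 0.0056 by edgeR). It remained past the adjusted threshold without UC KA replicate 3, at 1.06 (adjusted p = 0.0482 by edgeR), and the other 3 miRNAs did not.

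MiR-21a-5p had 354, 481 and 335 reads in the control libraries and 1010, 855 and 1183 in the KA libraries. The levels were 2705, 3116 and 3446 CPM against 5995, 5816 and 8271 CPM, again without overlap. The fitted log2 difference was 1.12 ± 0.27 (SE, adjusted p = 0.0162 by edgeR), and 0.88 without UC KA replicate 3 (adjusted p = 0.13). The passenger strand miR-21a-3p of the same hairpin had 9, 18 and 13 reads against 22, 33 and 18, overlapping between groups, with a log2 difference of 0.60 ± 0.41 (SE, adjusted p = 0.677 by edgeR).

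MiR-204-5p had 78, 42 and 34 reads in the control libraries and 97, 94 and 468 in the KA libraries. The levels were 596, 272 and 349.7 CPM against 576, 639 and 3272 CPM, so the groups overlapped and the third KA library alone lay far above the rest. The fitted log2 difference of 1.88 ± 0.41 (SE, adjusted p = 0.0056 by edgeR) was the largest of the 4, but without UC KA replicate 3 it was 0.52 (unadjusted p = 0.123, adjusted p = 0.824 by edgeR). The rise of miR-204-5p thus rested on 1 library. MiR-204-3p, the other arm, had a log2 difference of −0.43 ± 0.60 (SE, adjusted p = 0.9 by edgeR).

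MiR-1298-5p had 34, 18 and 21 reads in the control libraries and 91, 62 and 89 in the KA libraries. The levels were 259.8, 117 and 216 CPM against 540.1, 422 and 622 CPM, with no overlap. The fitted log2 difference was 1.43 ± 0.37 (SE, adjusted p = 0.0307 by edgeR), and 1.23 without UC KA replicate 3 (unadjusted p = 0.00116, adjusted p = 0.13 by edgeR). In that fit the called set shrank to miR-146a-5p alone, and the miRNAs past the unadjusted p numbered 21, of which 11 were among the 40. Leaving out another library also moved the number past the adjusted threshold, to 11 without KA replicate 1 or KA replicate 2 and to 2 without control replicate 2, when miR-6236 and miR-320-5p were lower and none of the 4 passed. With the 6 libraries alone in the fit, 0 miRNAs passed the adjusted threshold and 23 the unadjusted p, and each of the 4 had an adjusted p of 0.316 by edgeR. With the replicate number as a block in those 6 libraries, 4 miRNAs passed the adjusted threshold, namely miR-204-5p, miR-146a-5p and miR-1298-5p (higher) and miR-3085-3p (lower), and miR-21a-5p did not.

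**Figure D1:**
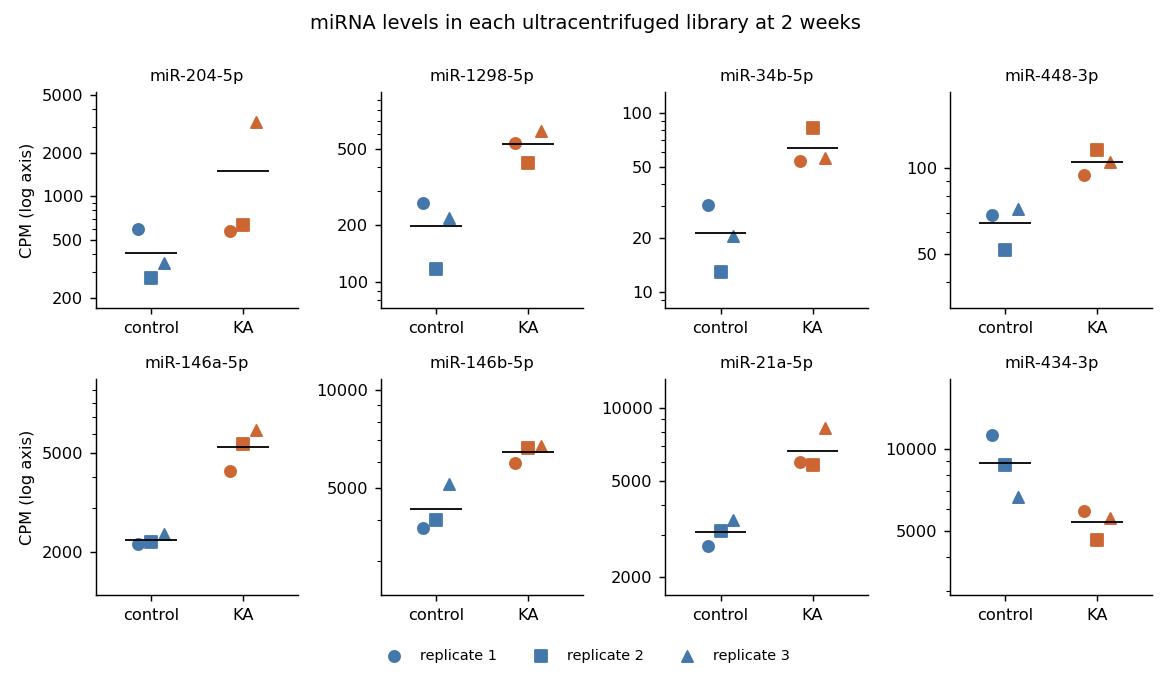
Level of 8 miRNAs in each ultracentrifuged library at 2 weeks, in CPM on a log axis that differs between panels. Blue symbols are the 3 control libraries, orange symbols the 3 KA libraries, the symbol shape gives the replicate and the line the group mean. Other tested members of the choroid plexus and ependyma list, such as miR-34c-5p and miR-204-3p, are not drawn. The KA libraries lie above the control libraries for miR-146a-5p, miR-21a-5p, miR-1298-5p, miR-34b-5p, miR-448-3p and miR-146b-5p and below them for miR-434-3p, whereas miR-204-5p is set apart by 1 KA library at 3272 CPM.

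Among the other 22 miRNAs that were higher at the unadjusted p, miR-191-5p was the most abundant, with 9332, 8099 and 10111 CPM in control and 14412, 9353 and 25792 CPM in KA. Its log2 difference was 0.85 ± 0.28 (SE, adjusted p = 0.223 by edgeR), and 0.31 without UC KA replicate 3. The same library held the highest value of miR-30e-3p (41 to 57 reads in control, 83, 73 and 230 in KA), miR-598-3p (5 to 18 against 13, 11 and 92), miR-151-3p (146 to 310 against 394, 241 and 821) and miR-154-5p (7 to 18 against 20, 13 and 78). Without it their log2 differences went from 1.03, 1.63, 0.84 and 1.30 to 0.17, −0.20, 0.066 and −0.0041. MiR-34b-5p, a p53-induced miRNA also known from ciliated cells, had 4, 2 and 2 reads in control and 9, 12 and 8 in KA, with a log2 difference of 1.55 ± 0.68 (SE, unadjusted p = 0.0267 by edgeR), and 1.57 without UC KA replicate 3. MiR-146b-5p had 3768, 4011 and 5143 CPM against 5983, 6632 and 6747 CPM, with a log2 difference of 0.58 ± 0.26 (SE, unadjusted p = 0.0295 by edgeR). MiR-455-5p and miR-671-3p each had 0 reads in the control libraries and 2, 1 and 3 reads in the KA libraries, which is at the counting floor.

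Of the 14 miRNAs lower at the unadjusted p, the most abundant was miR-6236. It had 33276, 12012 and 26373 CPM in control and 19754, 11570.3 and 6111 CPM in KA, with overlapping groups and a log2 difference of −0.94 ± 0.31 (SE, adjusted p = 0.223 by edgeR). With the replicate number as a block it passed the adjusted threshold (adjusted p = 0.00513 by edgeR), as did miR-3085-3p (adjusted p = 0.0109), which had 144, 248 and 77 reads against 115, 143 and 15. MiR-434-3p, an imprinted miRNA transcribed antisense to Rtl1, had 11273, 8689 and 6665 CPM in control and 5912, 4639 and 5586 CPM in KA. Every KA library of miR-434-3p lay below every control library, and its log2 difference was −0.72 ± 0.27 (SE, adjusted p = 0.376 by edgeR), or −0.82 without UC KA replicate 3. MiR-376a-3p, of the neighbouring miR-379 to miR-410 cluster, had 11 reads in each control library and 4, 10 and 0 in the KA libraries. MiR-320-5p had 48, 14 and 36 reads in control and 23, 15 and 12 in KA, with a log2 difference of −1.32 ± 0.43 (SE, adjusted p = 0.223 by edgeR). MiR-134-5p, a neuronal miRNA that limits dendritic spine size through Limk1, had 25, 46 and 23 reads against 18, 29 and 14, with a log2 difference of −0.86 ± 0.41 (SE, unadjusted p = 0.041 by edgeR). MiR-5126 (−1.31), miR-582-3p (−0.83), miR-1957a (−0.83) and miR-6538 (−1.21) were also lower. MiR-935 with 2, 2 and 2 reads and miR-7014-5p with 1, 1 and 2 reads in the control libraries had 0 reads in the KA libraries, and no fold change is given for them.

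The 5 most abundant miRNAs did not pass either threshold. MiR-127-3p had 164474 to 305536 CPM in control and 152717 to 262212 CPM in KA, and its log2 difference was −0.09 ± 0.25 (SE, adjusted p = 0.966 by edgeR). MiR-181a-5p differed by 0.36 ± 0.24, miR-22-3p by −0.07 ± 0.25, miR-30a-5p by 0.47 ± 0.25 and miR-181b-5p by 0.40 ± 0.25 (log2, SE). Over all 445 miRNAs, the values of both groups were fully separated for 47 (10.6%), with KA above for 30 (6.74%) and control above for 17 (3.82%). Among the 40 miRNAs past the unadjusted p, 12 of the 26 higher and 5 of the 14 lower ones had groups that did not overlap, and the choice of these miRNAs used the same values.

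**Figure D2:**
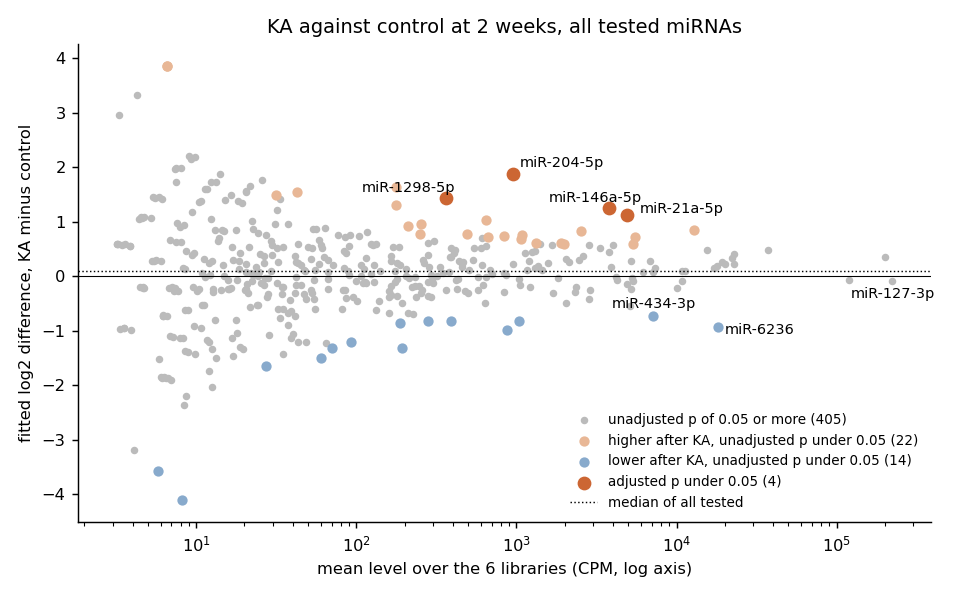
Fitted log2 difference (KA minus control) of each of the 445 tested miRNAs plotted against its mean level over the 6 libraries in CPM on a log axis. Dark orange points passed the adjusted threshold (4), light orange and blue points passed the unadjusted p only (22 higher, 14 lower), and the dotted line is the median of all tested miRNAs at 0.095. The 4 called miRNAs lie at intermediate to high levels, and differences beyond 2 in either direction lie at levels of a few reads, where the fitted size depends on the prior count.

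Base content and read ends are given here as a description of the 40 miRNAs. The median GC content was 62.9% for the 12 lower miRNAs with a RefSeq sequence, 45.5% for the 24 higher ones and 50% for the 395 tested miRNAs with a sequence. Over 60% GC was found in 6 of 12, 1 of 24 and 74 of 395 miRNAs, respectively. The share of reads whose 3′ end differed from the annotated one was 67.4% over the lower miRNAs, 10.3% over the higher ones and 11.0% over all tested miRNAs. The abundant miR-6236 carried most of the first value, and over the other 13 lower miRNAs the share was 22.9%. Within the lower miRNAs it reached 98.0% in miR-320-5p, 93.3% in miR-6236 and 92.1% in miR-1957a, and was 1.18% in miR-434-3p. The part of base content or read ends in the lower levels was not tested. The sequences of miR-6236 and miR-5126, both lower and rich in GC, are shown beside that of miR-434-3p, again with the seed in capitals.
miR-6236: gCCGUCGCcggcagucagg
miR-5126: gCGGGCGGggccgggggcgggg
miR-434-3p: uUUGAACCaucacucgacuccu

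Groups of miRNAs were described with 15 lists of cell type, cluster and family members, each by its tested members, the number past the unadjusted p and the median log2 difference, beside the 0.095 median, 5.84% higher and 3.15% lower over all tested miRNAs. Of the choroid plexus and ependyma list, 7 of 13 members were tested, 3 were higher (miR-204-5p, miR-1298-5p and miR-34b-5p) and 0 lower, and the median was 0.72. The summed level of the 7 was 2491, 1451 and 1738 CPM in the control libraries and 3817, 3088 and 4950.0 CPM in the KA libraries. All 3 KA sums thus lay above the 3 control sums, but not through the same miRNA. In UC KA replicate 3 most of the sum was miR-204-5p, and miR-34c-5p was at its lowest level of all libraries. In every other library most of the sum was miR-34c-5p. Without UC KA replicate 3 the median was 0.66 and 3 members passed the unadjusted p (miR-1298-5p, miR-34b-5p and, in place of miR-204-5p, miR-34c-5p), none of them the adjusted one. MiR-448-3p, from the same host gene as miR-1298-5p, had 9, 8 and 7 reads in control and 16, 17 and 15 in KA, with a log2 difference of 0.72 ± 0.53 (SE, unadjusted p = 0.181 by edgeR), and miR-34c-5p differed by 0.59 ± 0.32 (SE). MiR-211-5p, miR-449c-5p and miR-1264-3p of this list had no read. Whether choroid plexus tissue was carried along in the dissections was not tested.

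Of the microglia and inflammation list, 8 of 12 members were tested, 3 were higher (miR-146a-5p, miR-21a-5p and miR-146b-5p) and 0 lower, and the median was 0.64. Its summed level was 9156, 10017 and 11551 CPM in control and 16916, 18604 and 22121 CPM in KA, again without overlap, and these sums are made up mainly of the 3 miRNAs just named. The myeloid miR-142a-5p, with 0 to 61.7 CPM in control and 61.2 to 90.9 CPM in KA, had a log2 difference of 0.86 ± 0.62 (SE, unadjusted p = 0.171 by edgeR), and miR-142a-3p had 1 to 3 reads per library. MiR-342-5p differed by −0.07 ± 0.36 (SE). MiR-155-5p, miR-223-3p and miR-150-5p had reads in too few libraries to be tested. Without UC KA replicate 3 the median was 0.65, with 2 members past the unadjusted p.

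The red blood cell list had 2 of 6 members tested, miR-16-5p (higher, 0.75 ± 0.34, SE, unadjusted p = 0.0315 by edgeR) and miR-486b-5p (0.70 ± 0.37, SE). Both are also made by other cells, and the median of the list was 0.72 and 0.07 without UC KA replicate 3. The cell cycle list (miR-17/92 relatives) had 11 of 16 members tested and 1 higher, miR-25-3p, at 222, 564 and 288 CPM against 439, 476 and 951 CPM. Its median was 0.52, and 0.24 without UC KA replicate 3, when no member passed. MiR-92b-3p, the other reference miRNA of the study, differed by 0.52 ± 0.38 (SE), miR-92a-3p by 0.61 ± 0.39 (SE) and miR-93-5p by 0.17 ± 0.38 (SE).

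Lists of neural cells stood closer to the median of all tested miRNAs. Of the neuron-enriched list, 13 of 14 members were tested and 1 was higher, miR-129-5p, whose 504, 851 and 303 reads in control and 319, 732 and 1940 in KA overlapped. Its log2 difference was 0.71 ± 0.35 (SE, unadjusted p = 0.0462 by edgeR) and −0.33 without UC KA replicate 3. MiR-9-5p differed by 0.22 ± 0.25, miR-128-3p by 0.16 ± 0.26 and miR-124-3p by −0.09 ± 0.27 (log2, SE), and the median of the list was 0.17, or −0.05 without UC KA replicate 3. The astrocyte list had 8 of 8 members tested, 0 past the unadjusted p and a median of 0.26 (0.11 without UC KA replicate 3), with miR-26a-5p at 0.27 ± 0.27, miR-24-3p at 0.58 ± 0.31, miR-29a-3p at 0.25 ± 0.29 and miR-26b-5p at 0.51 ± 0.36 (log2, SE). The oligodendrocyte list had 4 of 6 tested and 1 higher, miR-338-3p, which was 1093, 972 and 1111 CPM in control and 1632, 1279 and 1909 CPM in KA without overlap (0.60 ± 0.30, SE, unadjusted p = 0.0475 by edgeR). MiR-219a-2-3p of that list differed by 0.28 ± 0.26, miR-338-5p by 0.21 ± 0.32 and miR-219a-5p by −0.008 ± 0.39 (log2, SE).

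Of the activity-regulated list, 10 of 10 members were tested and 1 was lower, miR-134-5p, with a median of 0.11. MiR-132-3p, which is induced by CREB in active neurons, had 67, 174 and 121 reads in control and 205, 184 and 201 in KA and differed by 0.43 ± 0.31 (SE, unadjusted p = 0.173 by edgeR). MiR-138-5p differed by −0.26 ± 0.27 and miR-485-5p by −0.21 ± 0.40 (log2, SE). The vascular list had 10 of 15 members tested and 2 higher, miR-10a-5p (0.93 ± 0.42, SE, unadjusted p = 0.0317 by edgeR) and miR-100-5p (0.60 ± 0.30, SE, unadjusted p = 0.0489 by edgeR), with a median of 0.11. Its most abundant member miR-143-3p, of smooth muscle, differed by −0.08 ± 0.27, miR-497a-5p by −0.31 ± 0.37 and miR-126a-5p, of endothelium, by 0.40 ± 0.41 (log2, SE). Without UC KA replicate 3 no member of the activity-regulated, vascular, neuron-enriched or oligodendrocyte lists passed the unadjusted p.

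A large share of the reads came from the imprinted cluster on chromosome 12. Its part antisense to Rtl1 held 177414 to 322129 CPM in control and 164832 to 273524 CPM in KA. Nearly all of this sum came from miR-127-3p. Of that part, 9 of 13 members were tested, with 1 higher (miR-431-5p, 2, 2 and 2 reads against 5, 6 and 10) and 1 lower (miR-434-3p), and the median was −0.09. MiR-136-3p differed by −0.07 ± 0.27 and miR-127-5p by −0.30 ± 0.31 (log2, SE). Of the miR-379 to miR-410 cluster, 38 of 52 members were tested, with 1 higher (miR-154-5p), 2 lower (miR-376a-3p and miR-134-5p) and a median of 0.10, or 0.06 without miR-411-3p, which had no read in 1 of the groups. Without UC KA replicate 3 the median of that cluster was −0.038, none of the 3 passed the unadjusted p, and miR-299a-3p and miR-667-5p were higher instead. In the part antisense to Rtl1 the median was then −0.17, with miR-434-3p and miR-433-3p lower. The most abundant members of that cluster were miR-541-5p (0.22 ± 0.25), miR-410-3p (0.51 ± 0.29), miR-411-5p (0.37 ± 0.30) and miR-300-3p (0.36 ± 0.34) (log2, SE).

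Among families, let-7 with miR-98 had 12 of 12 members tested, 0 past the unadjusted p and a median of 0.16, with let-7c-5p at 0.18 ± 0.26, let-7i-5p at 0.16 ± 0.25, let-7f-5p at 0.48 ± 0.30 and let-7b-5p at −0.15 ± 0.27 (log2, SE). MiR-30 had 11 of 11 tested and 1 higher (miR-30e-3p), with a median of 0.33, while miR-30e-5p, miR-30d-5p and miR-30a-3p differed by 0.10 ± 0.26, 0.09 ± 0.26 and 0.56 ± 0.33 (log2, SE). MiR-181 had 8 of 8 tested and 2 higher (miR-181a-1-3p at 0.67 ± 0.31, unadjusted p = 0.031, and miR-181d-5p at 0.60 ± 0.29, unadjusted p = 0.0418, by edgeR with SE), with a median of 0.22. MiR-181c-5p, of the same seed as miR-181d-5p, differed by 0.08 ± 0.26 (SE). The list of miR-15, miR-16 and their seed relatives had 7 of 8 tested, 1 higher (miR-16-5p) and a median of 0.30, with miR-103-3p at 0.56 ± 0.29 and miR-107-3p at 0.23 ± 0.31 (log2, SE). Without UC KA replicate 3 the median of this last list was 0.053 and no member passed, that of the miR-181 list was 0.15 and no member passed, and that of the miR-30 list was 0.15 with miR-30b-3p higher in place of miR-30e-3p. The let-7 median was then 0.27, with let-7a-5p and let-7f-5p higher.

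**Figure D3:**
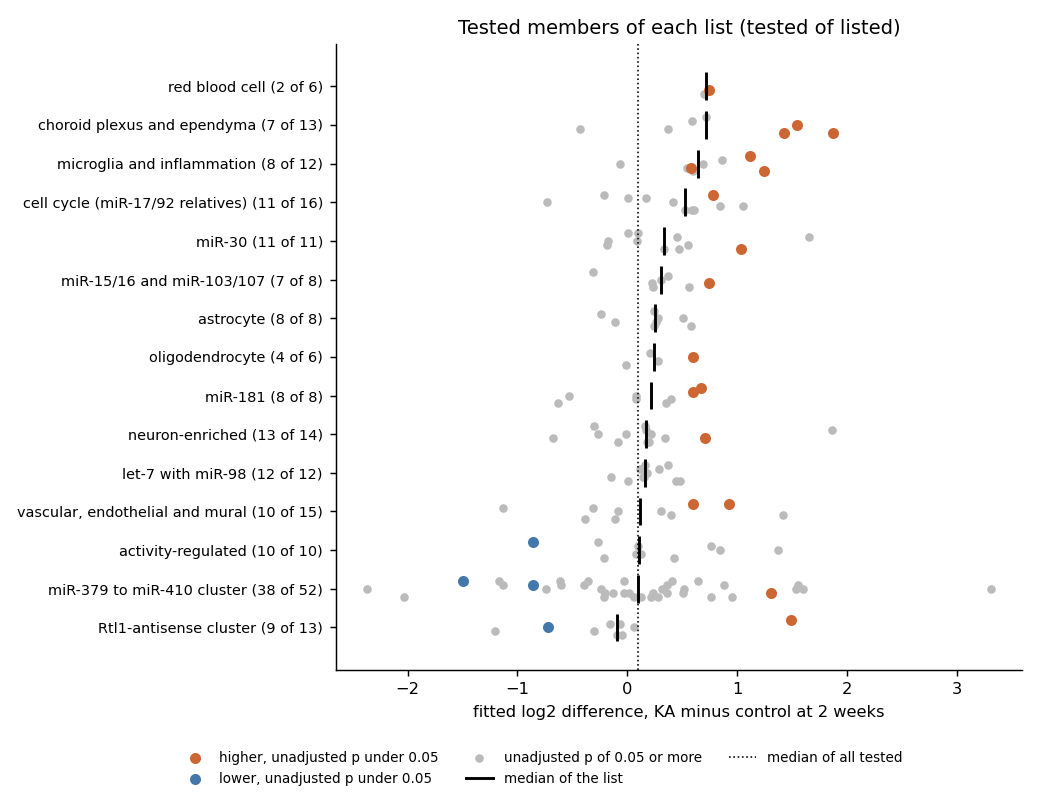
Fitted log2 difference (KA minus control at 2 weeks) of every tested member of the 15 lists, with the number tested of the number listed beside each name. Orange and blue points passed the unadjusted p (higher and lower), the bar is the median of the list and the dotted line the 0.095 median of all tested miRNAs. The choroid plexus and ependyma list (0.72) and the microglia and inflammation list (0.64) each hold 3 higher members, and the astrocyte and let-7 lists hold none.

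Reads were also summed over miRNAs that share a seed, since reads of near-identical members can be assigned to the wrong copy. By the same filter 384 units were tested, of which 334 were seed families (56 with at least 2 members) and 50 were single miRNAs without a RefSeq sequence. At an adjusted p under 0.05, 3 families rose (0.781%) and 0 fell, and 35 passed the unadjusted p (9.11%, with 5.47% higher and 3.65% lower). These were the seed of miR-204-5p, UCCCUUU, which no other detected miRNA held (1.93 ± 0.40, SE, adjusted p = 0.00213 by edgeR), the seed of miR-21a-5p and the rare miR-21c, AGCUUAU (1.16 ± 0.28, SE, adjusted p = 0.0168 by edgeR) and the seed of miR-1298-5p, UCAUUCG, again held by it alone (1.46 ± 0.37, SE, adjusted p = 0.0238 by edgeR). None of the 3 passed without UC KA replicate 3. The GAGAACU family, which sums miR-146a-5p and miR-146b-5p, had 774, 958 and 729 reads in control and 1726, 1773 and 1855 in KA. Its groups did not overlap, and its log2 difference was 0.88 ± 0.27 (SE, adjusted p = 0.145 by edgeR), between those of its members. With the replicate number as a block it passed the adjusted threshold, and 6 units passed in all.

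The 2 week difference was set against that at 24 h, in libraries with controls of their own. At 24 h, 13 miRNAs passed the unadjusted p (2.92%, with 1.35% higher and 1.57% lower), and miR-21a-5p, miR-21a-3p and miR-1957a passed the adjusted one (0.674%). The test of the difference between the 2 times called 2 miRNAs at an adjusted p under 0.05 (0.449%), 1 in each direction, and 28 passed the unadjusted p (6.29%, 14 in each direction). MiR-146a-5p had 237, 298 and 292 reads in the 24 h control libraries and 175, 230 and 177 in the 24 h KA libraries. The log2 difference was thus −0.44 ± 0.27 (SE) at 24 h and 1.25 ± 0.27 (SE) at 2 weeks, and the effects differed by 1.69 ± 0.39 (SE, adjusted p = 0.0153 by edgeR). MiR-1957a had 67, 83 and 60 reads in the 24 h control libraries and 356, 98 and 108 in the 24 h KA libraries, against 102, 92 and 254 and then 129, 100 and 111 at 2 weeks. Its effects differed by −2.31 ± 0.54 (SE, adjusted p = 0.0153 by edgeR), and at each time 1 library (24 h KA replicate 1 and 2 week control replicate 3) lay far above the rest. Without UC control replicate 3 of 2 weeks neither difference passed, with adjusted p = 0.0592 for miR-146a-5p and 0.445 for miR-1957a by edgeR.

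MiR-1298-5p had the next lowest p of this test. Its log2 difference was −0.31 ± 0.38 (SE) at 24 h, and the effects differed by 1.74 ± 0.53 (SE, unadjusted p = 0.00161, adjusted p = 0.239 by edgeR). The effect on miR-204-5p was 0.16 ± 0.40 (SE) at 24 h and differed by 1.71 ± 0.57 (SE, adjusted p = 0.289 by edgeR). MiR-21a-5p rose at both times, with 184, 344 and 304 reads against 760, 705 and 644 at 24 h, and its effects of 1.46 ± 0.27 (SE) and 1.12 ± 0.27 (SE) differed by −0.34 ± 0.38 (SE, adjusted p = 1.0 by edgeR). MiR-21a-3p had 15, 27 and 25 reads in the 24 h control libraries and 76, 135 and 85 in the 24 h KA libraries. Its effect was 2.21 ± 0.37 (SE) at 24 h against 0.60 ± 0.41 (SE) at 2 weeks, and the difference between them was −1.62 ± 0.56 (SE, unadjusted p = 0.00519, adjusted p = 0.289 by edgeR). MiR-107-3p, which had a log2 difference of 1.05 ± 0.31 (SE, unadjusted p = 0.00124 by edgeR) at 24 h, differed by 0.23 ± 0.31 (SE) at 2 weeks. Of the 40 miRNAs past the unadjusted p at 2 weeks, 18 (45.0%) had a log2 difference of the same sign at 24 h, beside 54.6% of all tested miRNAs.

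The same comparison at 2 weeks in kit-precipitated vesicles used other pools of hippocampi. With the kit, 12 miRNAs passed the unadjusted p (2.7%, with 2.02% higher and 0.674% lower) and 2 the adjusted one (0.449%). No miRNA differed between the methods in its KA effect at an adjusted p under 0.05 by edgeR (0.0%), and 15 passed the unadjusted p (3.37%, with 2.47% where the kit effect was the higher and 0.899% where it was the lower). In the fit over all 24 libraries, miR-21a-5p had a log2 difference of 1.47 ± 0.28 (SE, adjusted p = 0.0036 by edgeR) with the kit, and miR-146a-5p one of 1.92 ± 0.40 (SE, adjusted p = 0.0054 by edgeR). MiR-146a-5p had 173, 541 and 357 reads in the kit control libraries and 359, 5100 and 945 in the kit KA libraries. These read counts, not scaled to library size, overlapped between groups, and kit KA replicate 2 lay far above the rest. A fit without that library was not run. In that fit the kit effect on miR-204-5p was 0.25 ± 0.47 (SE), lower than that with UC by 1.43 on the log2 scale (SE 0.68, unadjusted p = 0.0421, adjusted p = 1.0 by edgeR), and its kit control libraries already held 1537 ± 133 CPM (SD, n = 3). The kit effect on miR-1298-5p was 0.33 ± 0.47 (SE), and its difference from that with UC was −0.92 ± 0.70 (SE, adjusted p = 1.0 by edgeR). The lowest p of this test belonged to miR-671-3p, miR-341-5p and miR-3473b, which had at most 7 reads in any of these 12 libraries. Of the 40 miRNAs past the unadjusted p with UC, 27 (67.5%) had the same sign with the kit, beside 55.3% of all tested miRNAs, and 3 of them passed the unadjusted p there.

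**Figure D4:**
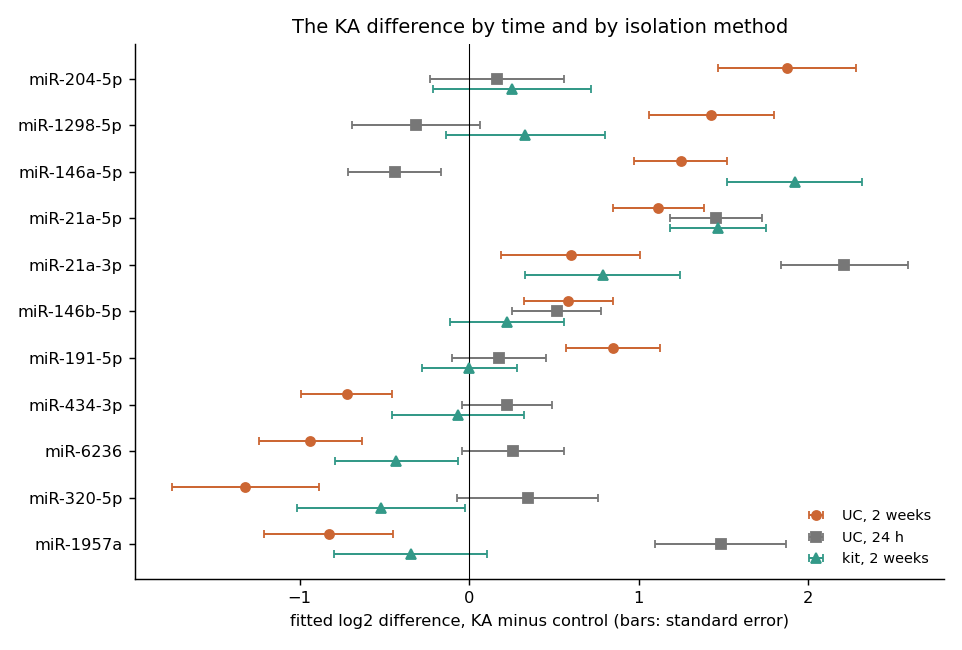
Fitted log2 difference (KA minus control) of 11 miRNAs with its standard error, for UC libraries at 2 weeks (orange circles), UC libraries at 24 h (grey squares) and kit libraries at 2 weeks (green triangles). MiR-21a-5p lies above 1 in all comparisons, miR-146a-5p lies above 1 at 2 weeks with both methods and at −0.44 at 24 h, and miR-204-5p and miR-1298-5p lie above 1 only for UC at 2 weeks, with a difference from the others that did not pass the adjusted threshold.

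The deposited patterns list where a read departs from the annotated miRNA. A read was counted as altered at the 3′ end when bases were added there or replaced the last bases. In the control libraries 12.9, 9.35 and 13.4% of reads were altered and in the KA libraries 12.1, 10.1 and 9.69%. The means of 11.9 ± 2.20% and 10.6 ± 1.26% (SD, n = 3) did not differ beyond the spread (exact permutation test, two-sided p = 0.4, where 3 against 3 libraries cannot go below 0.1). Without the reads of miR-6236 they were 9.79 and 9.60%. Reads with only A added made up 2.96 ± 0.30% in control and 3.39 ± 0.44% in KA (SD, n = 3, exact two-sided p = 0.3), and reads with only U added 3.83 ± 0.32 and 3.54 ± 0.52% (SD, n = 3, exact two-sided p = 0.5). The share of the 3 most abundant miRNAs was 53.6 ± 5.10 and 52.0 ± 4.12% (SD, n = 3), and 440 to 479 miRNAs were detected in control and 457 to 460 in KA libraries. All 6 such measures had an adjusted p of 0.7.

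Per miRNA, the share of altered reads could be tested for 85 miRNAs with at least 50 reads in each library. No miRNA passed the adjusted threshold (0.0%, limma on the log odds), and 4 passed the unadjusted p (4.71%), 2 higher (2.35%) and 2 lower (2.35%). MiR-1843a-5p had 4.71, 7.87 and 4.00% altered reads in control and 13.0, 8.75 and 13.7% in KA (log2 odds 1.12 ± 0.32, SE, adjusted p = 0.628 by limma), resting on 2 to 18 altered reads per library. MiR-125b-1-3p, whose reads mostly carry an added U (55.4%), had 72.3, 67.2 and 71.9% in control and 62.4, 62.9 and 52.4% in KA (−0.71 ± 0.24, SE, adjusted p = 0.753 by limma). MiR-1839-5p had a mean of 5.31% in control and 8.47% in KA (0.69 ± 0.28, SE, adjusted p = 0.753 by limma). MiR-146a-5p, whose level rose, had 40.6, 36.3 and 44.5% altered reads in control and 35.5, 30.5 and 31.8% in KA (−0.49 ± 0.21, SE, unadjusted p = 0.0494 and adjusted p = 0.753 by limma). For these 4 miRNAs the values of KA and control libraries did not overlap, but the choice of them used the same values. Among all 85 miRNAs, miR-21a-5p, miR-186-5p and miR-181a-5p, which passed neither threshold, were separated as well.

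The 2 arms of a hairpin are cut from the same precursor, so their ratio does not depend on the scaling of a library. Of 27 hairpins with a mean of at least 10 reads of each arm, none passed the adjusted threshold (0.0%, limma) and 2 passed the unadjusted p (7.41%). The ratio of 5p to 3p reads of miR-1298 was 0.919, 1.13 and 1.05 in control and 1.98, 1.94 and 4.24 in KA, and its log2 ratio differed by 1.29 ± 0.39 (SE, unadjusted p = 0.0126, adjusted p = 0.34 by limma). The miR-1298-3p reads behind it were 37, 16 and 20 in control and 46, 32 and 21 in KA, and the 3p reads of both groups overlapped. For miR-369 the ratio was 0.444, 0.214 and 0.263 in control and 0.594, 0.519 and 0.857 in KA (1.08 ± 0.39, SE, unadjusted p = 0.0283 by limma, on 5 to 19 reads of the 5p arm). MiR-124, the hairpin with the third lowest p, differed by −0.66 ± 0.39 (SE), and the ratio of miR-21a, 25.8 to 39.3 in control and 25.9 to 65.7 in KA, differed by 0.53 ± 0.41 (SE).

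Adenosines that are deaminated to inosine by ADAR enzymes are read as G. Sites were sought after criteria of the study (at least 10 reads of the miRNA, a binomial test against an error rate of 0.01 and at least 2 libraries of a group). The study also kept only miRNAs of bona fide miRNA genes, a limit that was not applied here. In this way 6 positions within mature miRNAs passed, counted from 1 at the 5′ end. For the 5 of them whose miRNA is in RefSeq the mature sequence is given with the changed A in capitals, since a changed seed alters which mRNAs can pair.
miR-3099-3p: uaggcuAgagagagguugggga
miR-376b-3p: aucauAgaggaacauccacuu
miR-411-5p: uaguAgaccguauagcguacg
miR-2137: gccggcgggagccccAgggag
miR-378c: acuggacuuggagucAgaagc

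Position 7 of miR-3099-3p, position 6 of miR-376b-3p and position 5 of miR-411-5p lie in the seed. MiR-3099-3p carried G in 92.4, 94.0 and 91.9% of reads in control and in 85.9, 92.3 and 87.0% in KA, on 169 to 426 reads. The means were 92.8 ± 1.13 and 88.4 ± 3.44% (SD, n = 3, exact permutation test, two-sided p = 0.2, adjusted p = 0.8). MiR-411-5p was changed in 19.3, 19.2 and 25.7% of reads in control and in 18.3, 26.3 and 15.4% in KA (exact two-sided p = 0.6), on 192 to 520 reads. MiR-376b-3p, which rests on 13 to 26 reads per library, was changed in 69.2, 64.3 and 76.9% of reads in control and 84.6, 76.9 and 60.0% in KA (exact two-sided p = 0.8).

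The other 3 positions, all numbered 16, lie outside the seed. MiR-378a-3p carried G in 56.6, 70.1 and 59.0% of reads in control and in 54.5, 66.9 and 59.4% in KA (exact two-sided p = 0.7), on 903 to 2153 reads, the deepest of the 6 sites. MiR-378c, a close relative whose reads may be shared with it, was changed in 49.2, 66.7 and 52.5% against 59.3, 68.5 and 61.8% (exact two-sided p = 0.3). In both, the second replicate of either group was the highest. MiR-2137 had only 2 to 23 reads per library, of which 71.4 to 100.0% carried G in control and 80.0 to 100.0% in KA (exact two-sided p = 0.8). With 3 against 3 libraries the exact permutation test cannot give a two-sided p below 0.1, so no site could pass the threshold. That test therefore cannot decide whether editing changed at a site. The adjusted p was 0.8 for all 6 sites, and the values of KA and control libraries overlapped at each of them. Between libraries of the same number, miR-378c was higher and miR-3099-3p lower in KA in 3 of 3 pairs (exact sign-flip test, two-sided p = 0.25 for both, the smallest that 3 pairs can give).

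**Figure D5:**
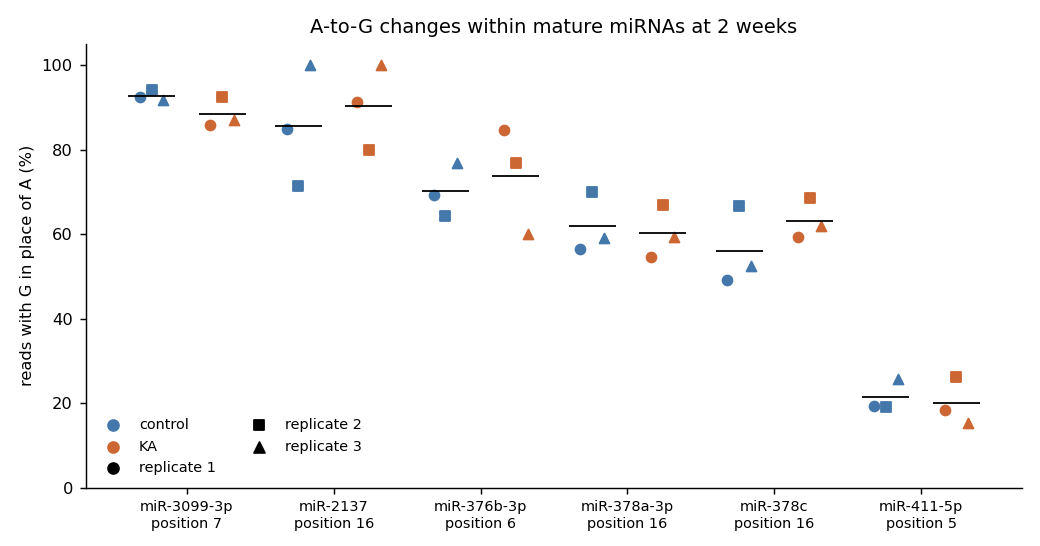
Percentage of reads with G in place of A at the 6 positions in each library, control in blue and KA in orange, with symbols for the replicates and lines for the group means. The sites range from a mean of 21.4% (control) at miR-411-5p to 92.8% (control) at miR-3099-3p, and KA and control libraries overlap at every site.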

How the data were processed

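Small RNA libraries (TruSeq, MiSeq) of hippocampal exosome-enriched fractions were mapped by the authors with Chimira to miRBase 21 hairpins, and the deposited values are raw read counts per miRNA, with a second set of counts per 3′, 5′ and internal modification. No molecular identifiers are described, so reads are not independent molecules and floors cover counting error only. The counts were used as deposited.

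Levels were fitted with edgeR 4.0.16 (R 4.3.3), TMM factors and the quasi-likelihood test over the 12 UC libraries in 4 groups, keeping miRNAs with at least 1 read in 3 of the 6 libraries of 2 weeks, with Benjamini-Hochberg adjustment and a threshold of 0.05. The time difference was a contrast of the same fit and the method difference one of a fit of 24 libraries. Altered-end odds and arm ratios were tested with limma 3.58.1 on log2 values with a pseudocount of 0.5, and library-wide shares and editing levels by two-sided exact permutation tests. Modification entries marked as listing a read a second time were left out, after which the sums equalled the read counts in 2763 of 2763 pairs of miRNA and library. The fits were tested on simulated data. DESeq2 1.42.0, limma-voom, other scalings, filters, a replicate block and leaving out each library were alternatives, and the block in 6 libraries, the shares of altered reads without miR-6236 and the lists without KA replicate 3 were added after the data were seen.

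Samples were grouped by their labels, which do not say whether pools of a group share animals, so p-values measure the spread between these libraries. Deviations from the group means of the same-numbered KA and control libraries correlated by 0.209, 0.268 and 0.131 over 205 miRNAs. Other pairs gave −0.25 to 0.036, and these correlations are not independent of each other. The numbers may thus pair the samples, which the labels do not state. The main fits and the exact permutation tests took no account of such a pairing. The miRNAs, lists and tests were chosen with earlier results of these data known. Named were every miRNA past the adjusted p, the 12 higher and 12 lower of lowest p, 6 miRNAs fixed by name (miR-21a-5p, miR-21a-3p, miR-146a-5p, miR-107-3p and the PCR references), the 5 most abundant, the 4 most read of each list, the 3 lowest p of the other tests and each edited site. Further members of the described lists, such as miR-448-3p and miR-142a-5p, were named after their values were seen. Mature sequences were from RefSeq, which held 395 of the 445 miRNAs.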

Additional observations from a re-analysis of the deposited data

Results flagged for a closer look

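The KA effects at 2 weeks and at 24 h differed for 2 miRNAs by a test of the difference itself. The effect on miR-146a-5p was higher at 2 weeks by 1.69 ± 0.39 (log2, SE, adjusted p = 0.0153 by edgeR), with KA libraries at 175 to 230 reads against 237 to 298 in control at 24 h and at 718 to 890 against 229 to 339 at 2 weeks. The effect on miR-1957a differed by −2.31 ± 0.54 (log2, SE, adjusted p = 0.0153 by edgeR), with 98 to 356 reads in KA against 60 to 83 in control at 24 h and 100 to 129 against 92 to 254 at 2 weeks. Over the fits without 1 library of 2 weeks, neither passed without UC control replicate 3 (adjusted p = 0.0592 and 0.445, with differences of 1.73 and −1.37).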

How the results depend on the processing

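The limits are those of 3 pooled libraries a group, of which 1 stood apart. Numbers of miRNAs past the adjusted threshold were 4 as reported, 2 with library size only, 0 with the PCR references miR-92b-3p and miR-25-3p as scale, 0 with 6 libraries in the fit (when 23 passed the unadjusted p), 2 with at least 10 reads in 3 libraries and 1 to 11 when 1 library was left out. Past the unadjusted p were 40 as reported, 18 with DESeq2, 19 with at least 10 reads in 3 libraries and 21 to 56 when 1 library was left out. The cause of these shifts in number was not tested. Under the stricter filter 205 miRNAs were tested. A level of under 3 reads per library is at the counting floor.

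The replicate block, with the replicate number as a factor, gave 6 miRNAs past the adjusted threshold (miR-6236 and miR-3085-3p beside the 4) and 43 past the unadjusted p, and the fit of 6 libraries with the block gave 4 past the adjusted threshold (miR-1298-5p, miR-146a-5p, miR-204-5p and miR-3085-3p, against 0 without the block) and 26 past the unadjusted p. The block also gave 6 seed families past the adjusted threshold, 3 miRNAs past it in the difference between the times (miR-6236 beside the 2), 7 altered ends and 1 arm ratio past the unadjusted p, and it turned miR-219a-5p to 0.012. In the difference between the methods, the altered ends and the arm ratios 0 passed the adjusted threshold with or without the block.

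With at least 10 reads in 3 libraries, the difference between the times had 15 miRNAs past the unadjusted and 1 past the adjusted p, the difference between the methods 5 past the unadjusted p, and the seed families 18 and 1. Altered ends past the unadjusted p were 9 with at least 20 reads, and arm ratios 0 with a mean of at least 30 reads. When 1 library was left out, the difference between the times had 0 (without UC control replicate 3) to 5 (without UC KA replicate 1) miRNAs past the adjusted p, the difference between the methods 11 to 26 past the unadjusted p, the seed families 19 to 43 past the unadjusted and 0 to 12 past the adjusted p, altered ends 2 to 8 and arm ratios 1 to 3.

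None of the following log2 differences was called by adjusted p as reported. Without KA replicate 1 miR-129-5p, miR-151-3p, miR-154-5p, miR-191-5p and miR-598-3p were called, without KA replicate 2 the last 4 of these, and without control replicate 3 miR-598-3p. With those references as scale, which lowered the median of all miRNAs to −0.52, these turned negative: miR-191-5p −0.035, miR-151-3p −0.18, miR-107-3p −0.42, miR-92b-3p −0.21, miR-181a-5p −0.40, miR-30a-5p −0.29, miR-181b-5p −0.36, miR-146b-5p −0.052, miR-26a-5p −0.27, miR-24-3p −0.053, miR-29a-3p −0.45, miR-26b-5p −0.039, miR-9-5p −0.57, miR-128-3p −0.55, miR-129-5p −0.19, miR-132-3p −0.11, miR-219a-2-3p −0.41, miR-338-3p −0.13, miR-338-5p −0.52, miR-100-5p −0.28, miR-126a-5p −0.35, miR-486b-5p −0.27, miR-34c-5p −0.0055, miR-92a-3p −0.22, miR-93-5p −0.52, miR-541-5p −0.47, miR-410-3p −0.15, miR-411-5p −0.28, miR-300-3p −0.29, let-7c-5p −0.35, let-7i-5p −0.44, let-7f-5p −0.049, miR-30e-5p −0.52, miR-30d-5p −0.53, miR-30a-3p −0.27, miR-181c-5p −0.49, miR-181d-5p −0.18, miR-103-3p −0.19. With library size only, miR-30e-5p (−0.039), miR-30d-5p (−0.026) and miR-181c-5p (−0.035) turned, with RLE factors miR-30d-5p (−0.00020) and miR-181c-5p (−0.014), with DESeq2 miR-181c-5p (−0.014), with the block in 6 libraries miR-181c-5p (−0.0072) and with limma-voom miR-3473b (0.27). Leaving out 1 library turned the sign of these, with the lowest and highest value: miR-107-3p −0.074 to 0.37, miR-124-3p −0.25 to 0.033, miR-127-3p −0.28 to 0.10, miR-128-3p −0.16 to 0.29, miR-129-5p −0.33 to 1.15, miR-136-3p −0.23 to 0.054, miR-143-3p −0.29 to 0.13, miR-154-5p −0.0041 to 1.71, miR-181c-5p −0.12 to 0.19, miR-1957a −1.30 to 0.11, miR-219a-5p −0.18 to 0.13, miR-22-3p −0.19 to 0.093, miR-26a-5p −0.053 to 0.47, miR-30d-5p −0.17 to 0.18, miR-30e-5p −0.10 to 0.23, miR-338-5p −0.067 to 0.32, miR-342-5p −0.23 to 0.079, miR-3473b −0.99 to 0.58, miR-485-5p −0.74 to 0.11, miR-486b-5p −0.30 to 1.02, miR-598-3p −0.20 to 2.60, miR-9-5p −0.049 to 0.36, miR-92b-3p −0.12 to 0.86, miR-93-5p −0.19 to 0.32. In the same way the A-to-G differences, in percentage points, ran from −2.07 to 12.2 at miR-2137, −1.68 to 10.6 at miR-376b-3p, −4.93 to 2.49 at miR-378a-3p and −4.53 to 0.92 at miR-411-5p. The number of detected miRNAs differed by −16.5 to 3 (5.33 over tested miRNAs only) and the share of the 3 most abundant by −4.22 to 0.85 points.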
